A study of Mus musculus with 81 samples.

Results

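The 7 genes described here encode subunits of the GABA-A receptor, the chloride channel through which GABA inhibits neurons of the adult hippocampus. They were chosen by name: Gabra2, Gabra3, Gabra4 and Gabra5 encode alpha subunits, Gabrb1 and Gabrb2 encode beta subunits and Gabrd encodes the delta subunit. All 7 were found, each under 1 identifier, among the 57010 genes of the 3 deposited count matrices. Gabra4, Gabra5 and Gabrd were grouped as extrasynaptic subunits, and the other 4 as synaptic subunits, although beta subunits occur in both kinds of receptor.

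A GABA-A receptor is a ring of subunits, usually alpha and beta subunits with a gamma or a delta subunit. Receptors with a gamma subunit and an alpha2 or alpha3 subunit gather at synapses, where gephyrin anchors them, and give brief inhibitory currents. Receptors with alpha4 and delta, and many with alpha5, lie outside the synapse and carry tonic inhibition, a lasting current driven by ambient GABA. Tonic inhibition through delta receptors is best known from dentate granule cells and that through alpha5 receptors from CA1 and CA3 pyramidal neurons, and excess inhibition has long been studied in the hippocampus of Ts65Dn mice.

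The study compared 3 hippocampal cell populations, CA1 pyramidal neurons (CA1 PNs), CA3 pyramidal neurons (CA3 PNs) and dentate gyrus granule cells (DGCs), in trisomic Ts65Dn mice (Ts) and disomic littermates (2N). Their dams were fed a diet with normal choline (ChN, 1.1 g/kg) or supplemental choline (ChP, 5.0 g/kg) through gestation and lactation, all offspring ate the normal diet after weaning, and neurons were cut out by laser capture at about 6 months of age (MO). Ts mice carry an extra copy of part of mouse chromosome 16 and of a piece of chromosome 17, on a mixed C57Bl/6J Eicher × C3H/HeSnJ background that 2N littermates share, and no member lies on either chromosome. The 81 libraries came from 28 mice and fall into 12 groups of 5 to 9 libraries: 5 CA1 Ts ChN, 9 CA1 Ts ChP and 9 DG Ts ChP libraries, 6 in each other ChN group and 7 in each other ChP group. The ChN mice were male by the study's methods. The labels used here give neither the sex of the ChP mice nor the day of library preparation, so that diet and any difference of that kind cannot be told apart. One CA3 library from mouse 15-145 is labelled Ts although the mouse's other libraries are labelled 2N, and it was counted as 2N.

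Libraries held 358355 to 4744036 expected counts, with a median of 1105133. The dentate markers Prox1, Dsp and C1ql2 summed to 1337 to 1834 CPM (counts of a gene relative to the scaled library total) in DGCs, at most 14.5 in CA1 PNs and at most 10.72 in CA3 PNs apart from 108.8 in the CA3 library of mouse 15-140. The CA3 markers Cpne4, Bok and Grik4 summed to 490.3 to 674.7 CPM in CA3 PNs, but CA1 libraries of 3 mice lay in that range, at 529.6 (15-336), 544.8 (17-21) and 594.1 CPM (16-272). The CA1 libraries were of more than 1 kind. In 10 of 27 the summed level of 7 CA2 markers (Ccdc3, Cacng5, Rgs14, Amigo2, Map3k15, Necab2 and Pcp4, a list drawn up on these data) was 521.7 to 2099 CPM, against 70.98 to 142.5 CPM in the other 17, and the CA1 markers Wfs1, Fibcd1 and Spink8 summed to 48.39 to 719.4 CPM in these 10 against 759.0 to 1407 CPM in the other 17. These 10 were 2 of 6 in 2N ChN, 1 of 5 in Ts ChN, 3 of 7 in 2N ChP and 4 of 9 in Ts ChP. Results for CA1 PNs are therefore also given without them. The CA1 libraries of mice 17-21 and 17-154, which one alternative left out on their own, are among the 10. In captured tissue, fewer cells of a type and less RNA per cell cannot be told apart.

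The members lie on 5 chromosomes in the GRCm39 build. Gabra2 (chr5:71114573-71253662, minus strand), Gabra4 (chr5:71721738-71815722, minus strand) and Gabrb1 (chr5:71815456-72319431, plus strand) are neighbours, and the starts of Gabra4 and Gabrb1 face away from each other and overlap. Gabra5 is on chr7:57055164-57240831 (minus strand). Gabra3 is on chrX:71476275-71700723 (minus strand), Gabrb2 on chr11:42310493-42523417 (plus strand) and Gabrd on chr4:155469407-155482872 (minus strand). Whether counting used the strand is not given in the sources used here, so reads where genes overlap on opposite strands, as Gabra4 and Gabrb1 do, may have been assigned to either gene.

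Gabra2 and Gabra3 are shown by the sequence before their starts because they stand at the ends of the pattern described next, Gabra2 alike in the 3 populations and Gabra3 high in CA1 PNs. The RefSeq promoter table held windows for 6 of the 7 members, in build GRCm38.p6; Gabrd was not matched. The 250 bases before the start are printed 5′ to 3′ with each CpG in capitals, for Gabra2 from chr5:71095850-71096099 (minus strand) and for the first of the listed starts of Gabra3 from chrX:72656920-72657169 (minus strand).
Gabra2: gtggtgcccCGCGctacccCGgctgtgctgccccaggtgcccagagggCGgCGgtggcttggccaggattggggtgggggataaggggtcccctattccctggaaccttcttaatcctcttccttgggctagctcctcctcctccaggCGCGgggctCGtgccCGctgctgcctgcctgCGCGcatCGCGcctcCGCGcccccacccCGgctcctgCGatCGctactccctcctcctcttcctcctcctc
Gabra3: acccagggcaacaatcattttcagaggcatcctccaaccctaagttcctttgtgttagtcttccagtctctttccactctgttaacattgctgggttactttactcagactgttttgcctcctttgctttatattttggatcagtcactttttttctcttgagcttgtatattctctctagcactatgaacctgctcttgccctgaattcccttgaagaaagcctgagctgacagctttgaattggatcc
The Gabra2 window held 18 CpG and 70.0% G and C, and the Gabra3 window held 0 CpG and 42.4%. Of the 32851 windows of this length in the table, 7.87% held no CpG and the median was 6. The letters TATAAA, searched on both strands, were found in the Gabra3 window, in the first Gabrb2 window and in 12.4% of all windows. They were not found in the first windows of Gabra2, Gabra4, Gabra5 and Gabrb1. The windows of Gabra4 and Gabra5 held 12 and 9 CpG, and the first windows of Gabrb1 and Gabrb2 held 18 and 8. These counts describe the letters only.

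Between populations, the members fell into 2 kinds (the plot of CPM by library shows each value). Gabra2 and Gabrb1 had like levels in CA1 PNs, CA3 PNs and DGCs, although the LFCs of Gabrb1 against DGCs were small and all above 0. Gabra3, Gabra4, Gabra5, Gabrb2 and Gabrd each differed between at least one pair of populations in every genotype and diet. Gabrd was highest in DGCs, intermediate in CA1 PNs and near 0 in CA3 PNs. Gabra3 was found mainly in CA1 PNs. Gabra4 was higher in DGCs than in both pyramidal populations, Gabra5 was lower there, and Gabrb2 was lowest in CA3 PNs.

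**Figure D1:**
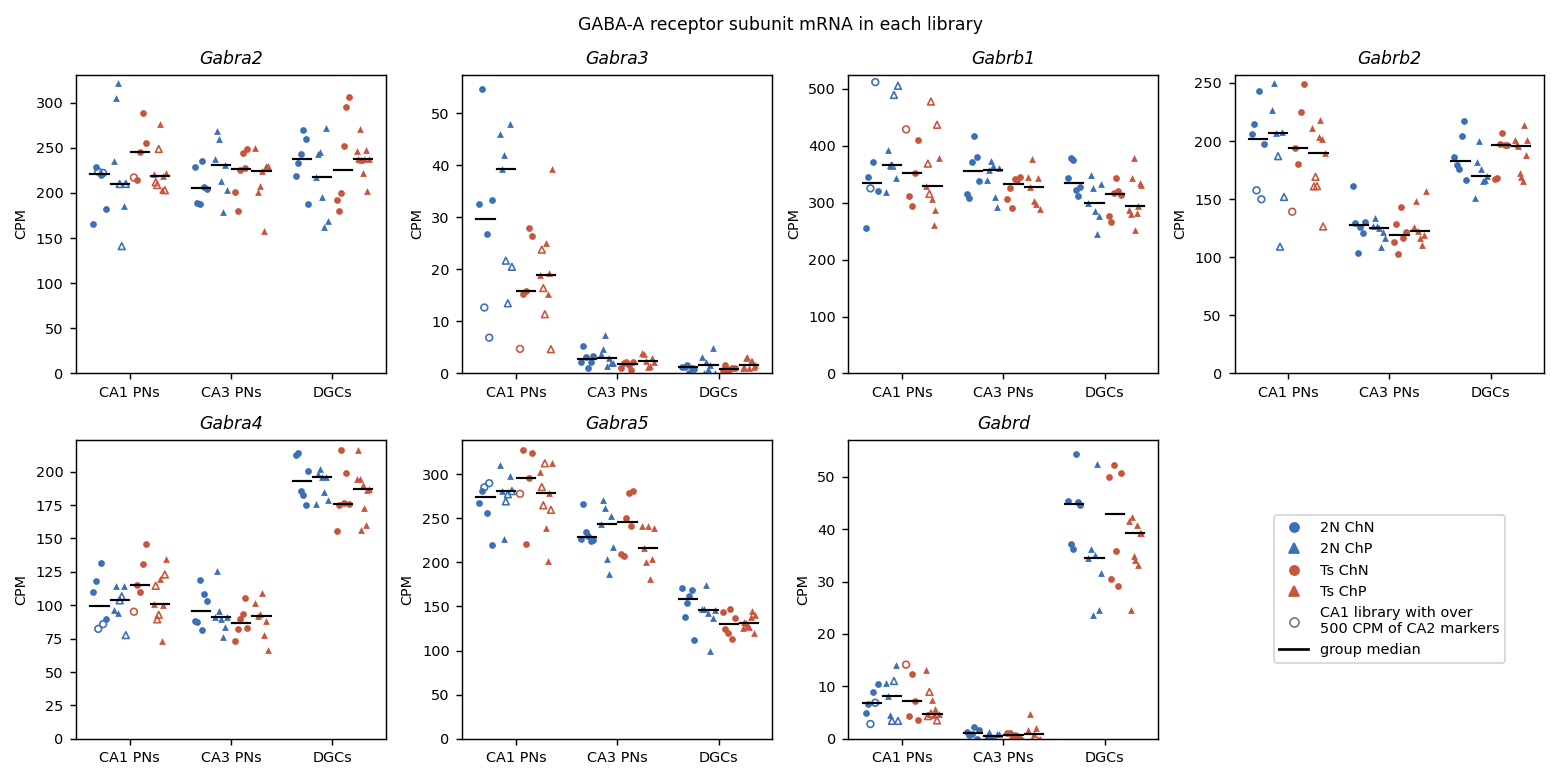
CPM (linear axis) of each member in the 81 libraries by population, coloured by genotype, with circles for ChN and triangles for ChP, group medians as bars, and open symbols for the 10 CA1 libraries with over 500 CPM of CA2 markers. Gabrd in DGCs (23.66 to 54.33 CPM) lies above every CA1 and CA3 library, and Gabra3 is spread from 4.664 to 54.67 CPM in CA1 PNs.

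Each pair of populations was compared within each genotype and diet by edgeR's quasi-likelihood test, giving a log2 fold change (LFC) and a p adjusted by the Benjamini-Hochberg method over all genes tested, called when under 0.05. Libraries of the same mouse were not paired in this test. Of the 7 members, all of which passed the filter on low counts, 3 in 2N ChN, 3 in 2N ChP, 4 in Ts ChN and 4 in Ts ChP differed between CA1 and CA3 PNs, where 23.3%, 22.9%, 25.3% and 24.5% of all genes tested did. Between CA1 PNs and DGCs, 4, 5, 4 and 4 members in the same order differed, against 34.3%, 31.8%, 33.8% and 39.3% of all genes. Between CA3 PNs and DGCs, 4 members differed in each genotype and diet, against 43.7%, 40.4%, 44.5% and 44.2% of all genes. The median LFC of the 7 members for CA1 over CA3 PNs was 0.19 to 0.43 beside 0.00 to 0.01 for all genes.

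**Figure D2:**
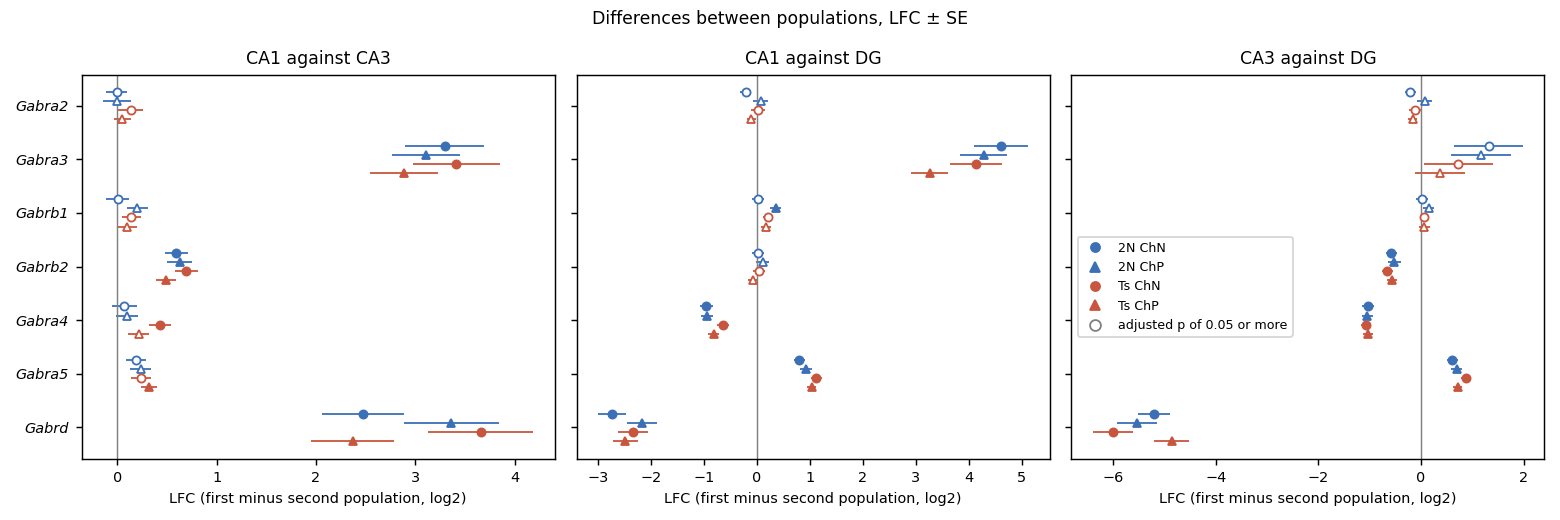
LFC (log2) ± SE of each member for CA1 against CA3, CA1 against DG and CA3 against DG in each genotype and diet, with filled symbols for adjusted p under 0.05. Gabrd and Gabra3 give the widest LFCs, from -6.00 for Gabrd in CA3 against DG to 4.61 for Gabra3 in CA1 against DG, while Gabra2 stays between -0.21 and 0.13.

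Gabrd encodes the delta subunit, which replaces gamma in extrasynaptic receptors. In DGCs it measured 36.16, 44.85 and 54.33 CPM (lowest, median, highest) in 6 2N ChN libraries, 23.66, 34.44 and 52.40 CPM in 7 2N ChP, 29.20, 42.94 and 52.24 CPM in 6 Ts ChN and 24.48, 39.20 and 42.25 CPM in 9 Ts ChP libraries. In CA1 PNs the corresponding values were 2.814, 6.791 and 10.40 CPM in 2N ChN, 3.413, 8.194 and 14.03 CPM in 2N ChP and 3.498, 4.813 and 13.13 CPM in Ts ChP, and the 5 Ts ChN libraries measured 14.15, 4.299, 12.30, 7.258 and 3.518 CPM. No CA1 library reached the lowest DGC library.
In CA3 PNs the highest of 26 libraries was 4.732 CPM, in mouse 15-140 whose CA3 library also held the most dentate markers (108.8 CPM), and 8 were at 0. The Gabrd reads of all CA3 libraries summed to 36, which gives 0.899 CPM with an exact 95% Poisson interval of 0.630 to 1.25 CPM, against 7.16 (6.24 to 8.19) CPM from 215 reads in CA1 PNs and 39.1 (36.8 to 41.4) CPM from 1155 reads in DGCs. These intervals cover counting error only.
Gabrd was higher in CA1 than in CA3 PNs in all 4 strata, where a stratum is a genotype on a diet, with LFCs of 2.47 ± 0.415 (SE) in 2N ChN, 3.36 ± 0.479 in 2N ChP, 3.66 ± 0.527 in Ts ChN and 2.37 ± 0.418 in Ts ChP (edgeR, largest adjusted p = 1.49e-05). It was lower in CA1 PNs than in DGCs by LFCs of -2.74 to -2.16 (largest adjusted p = 2.1e-08), and CA3 PNs fell below DGCs by LFCs of -6.00 to -4.86 (largest adjusted p = 3.16e-16). Within mice, DGCs had the higher Gabrd level in 27 of 27 pairs with CA1 PNs and 26 of 26 pairs with CA3 PNs, and CA1 PNs the higher level in 24 of 25 pairs with CA3 PNs. Without the 10 CA1 libraries, the LFC for CA1 over CA3 PNs was 2.60 to 3.64 and that for CA1 against DG -2.65 to -1.89, each called in 4 of 4 strata. Without mouse 15-140, Gabrd in Ts ChP gave LFCs of 3.00 for CA1 against CA3 and -5.50 for CA3 against DG, both called.

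Gabra4 encodes the alpha4 subunit, the usual partner of delta in forebrain. In DGCs it measured 175.4, 193.2 and 213.8 CPM (lowest, median, highest) in 2N ChN, 176.2, 195.9 and 202.2 in 2N ChP, 155.9, 176.2 and 216.0 in Ts ChN and 156.0, 187.0 and 216.4 CPM in Ts ChP. The highest of 27 CA1 libraries was 146.0 CPM and the highest of 26 CA3 libraries 125.5 CPM, so that DGCs did not overlap with either pyramidal population.
Gabra4 was lower in CA1 PNs than in DGCs by LFCs of -0.96 to -0.64 (SE 0.0983 to 0.122, edgeR, largest adjusted p = 9.5e-06), and CA3 PNs were below DGCs by -1.07 to -1.03 (largest adjusted p = 5.09e-09). The 2 pyramidal populations differed in 1 stratum of 4, Ts ChN, in which Gabra4 was higher in CA1 PNs (LFC 0.43 ± 0.114, edgeR adjusted p = 0.00368), and in the other 3 the LFC was 0.07 to 0.21. Between CA3 PNs and DGCs, Gabra4 differed by 2.04-fold to 2.10-fold and Gabrd by 29.0-fold to 64.0-fold. The ratio of Gabrd to Gabra4 in TPM, a unit that divides counts by transcript length, had a median of 0.374 in DGCs, 0.116 in CA1 PNs and 0.0156 in CA3 PNs.

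Gabra5 encodes the alpha5 subunit, which carries much of the tonic current of pyramidal neurons. It measured 201.5 to 327.4 CPM in CA1 PNs, 180.9 to 280.3 CPM in CA3 PNs and 99.88 to 174.2 CPM in DGCs, so that DGCs did not overlap with either pyramidal population. By group, the medians in DGCs were 158.1 CPM in 2N ChN, 145.6 in 2N ChP, 130.2 in Ts ChN and 131.7 in Ts ChP, against 274.3, 280.7, 295.5 and 278.8 CPM in CA1 PNs.
The LFC of Gabra5 for CA1 PNs over DGCs was 0.80 to 1.12 (SE 0.0812 to 0.109, edgeR, largest adjusted p = 1.38e-07) and that for CA3 PNs over DGCs 0.61 to 0.89 (largest adjusted p = 1.09e-05). It was also higher in CA1 than in CA3 PNs in 21 of 25 mice, but the difference of 0.19 to 0.32 passed the test only in Ts ChP (LFC 0.32 ± 0.0838, edgeR adjusted p = 0.00304). With the mouse as a block it passed in Ts ChN as well (LFC 0.27 ± 0.0943, edgeR adjusted p = 0.0323), and also there without the 10 CA1 libraries (LFC 0.25, adjusted p = 0.0401). Thus the extrasynaptic subunits did not move together: DGCs had more Gabrd and Gabra4 and less Gabra5 than both pyramidal populations.

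Gabra3 encodes the alpha3 subunit, a synaptic subunit that is scarce in much of the hippocampus. In CA1 PNs it measured 6.868, 29.63 and 54.67 CPM (lowest, median, highest) in 2N ChN, 13.48, 39.33 and 47.95 CPM in 2N ChP and 4.664, 18.84 and 39.31 CPM in Ts ChP, and the 5 Ts ChN libraries measured 4.718, 15.35, 15.81, 27.99 and 26.38 CPM. It reached at most 7.425 CPM in CA3 PNs and 4.899 CPM in DGCs, where 4 of 28 libraries were at 0. Only CA1 libraries from the 10 with high CA2 markers fell to within the range of CA3 PNs.
The LFC of Gabra3 for CA1 over CA3 PNs was 3.29 ± 0.398 in 2N ChN, 3.11 ± 0.344 in 2N ChP, 3.41 ± 0.439 in Ts ChN and 2.89 ± 0.339 in Ts ChP (edgeR, largest adjusted p = 5.72e-08), and that for CA1 PNs over DGCs was 3.26 to 4.61 (largest adjusted p = 5.46e-09). Gabra3 was higher in CA1 PNs in every mouse, 25 of 25 against CA3 PNs and 27 of 27 against DGCs. CA3 PNs and DGCs did not pass the test in any stratum (LFC 0.37 to 1.32, SE 0.488 to 0.670, smallest adjusted p = 0.106). That comparison rests on 105 Gabra3 reads over all CA3 libraries and 40 over all DGC libraries.

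Within CA1 PNs, Gabra3 had the widest relative spread of the 7 members (mean 24.5, SD 13.5 CPM), and it moved with the markers of the captured cells (the plot against CA2 markers shows the 27 libraries). In the 10 libraries with over 500 CPM of CA2 markers Gabra3 was 4.664 to 23.78 CPM with a median of 13.1, and in the other 17 it was 15.27 to 54.67 CPM with a median of 28.0. Gabrb2 was 109.1 to 187.0 CPM in the 10 and 180.1 to 249.9 CPM in the 17. Gabrb1 went the other way, with a median of 433 CPM in the 10 and 328 CPM in the 17.
Interneuron markers moved with this split too. The 8 interneuron markers summed to 263.5 to 457.7 CPM in the 10 libraries and 149.5 to 237.4 CPM in the 17, and the 3 CA3 markers to 137.1 to 594.1 CPM against 1.498 to 27.48 CPM. The part that CA2, CA3 or interneuron RNA plays in the level of Gabra3, Gabrb1 or Gabrb2 was not tested. Without the 10 libraries, the LFC of Gabra3 for CA1 over CA3 PNs was 3.21 to 3.72 and that for CA1 PNs over DGCs 3.58 to 5.05, both called in all 4 strata.

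**Figure D3:**
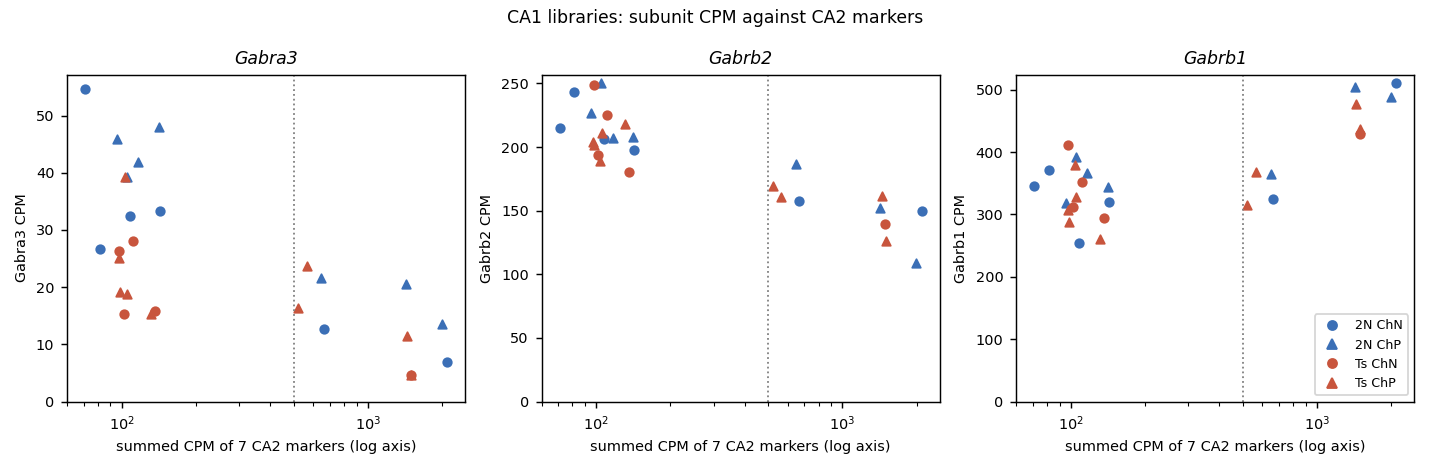
CPM (linear axis) of Gabra3, Gabrb2 and Gabrb1 in the 27 CA1 libraries against the summed CPM of 7 CA2 markers (log axis), with blue for 2N, red for Ts, circles for ChN, triangles for ChP and a dotted line at 500 CPM. Right of the line Gabra3 is at most 23.78 CPM and Gabrb2 at most 187.0 CPM, and left of it Gabra3 reaches 54.67 CPM and Gabrb2 249.9 CPM.

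Gabrb2 encodes the beta2 subunit. It measured 103.1 to 161.5 CPM in CA3 PNs, with group medians of 119.2 to 128.0, against 151.4 to 217.4 CPM in DGCs, with group medians of 170.1 to 196.5. In CA1 PNs it ranged from 109.1 to 249.9 CPM. The CA3 and DGC ranges met only at their ends.
Gabrb2 was higher in CA1 than in CA3 PNs by LFCs of 0.49 to 0.70 (SE 0.0964 to 0.122, edgeR, largest adjusted p = 0.000152), and CA3 PNs were below DGCs by -0.66 to -0.52 (largest adjusted p = 0.000643). All mice had this order, 25 of 25 for CA1 over CA3 PNs and 26 of 26 for DGCs over CA3 PNs. CA1 PNs and DGCs did not pass the test (LFC -0.08 to 0.11). Without the 10 CA1 libraries Gabrb2 was higher in CA1 PNs than in DGCs in 2N ChP (LFC 0.34 ± 0.106, edgeR adjusted p = 0.0109).

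Gabra2 and Gabrb1 encode the alpha2 and beta1 subunits, and their levels overlapped between all populations. Gabra2 measured 141.0 to 322.0 CPM in CA1 PNs, 157.4 to 268.9 CPM in CA3 PNs and 162.1 to 306.7 CPM in DGCs. Its 12 LFCs between populations lay between -0.21 and 0.13 with SEs of 0.0812 to 0.144, and none passed the test (edgeR, smallest adjusted p = 0.114). Scaled to library totals, which lowered the median LFC of all genes against DGCs by 0.09 to 0.22, Gabra2 was lower than in DGCs in both pyramidal populations of 2N ChN (LFC -0.35 for CA1 and -0.40 for CA3 PNs) and Ts ChP mice (LFC -0.27 and -0.38).
Gabrb1 measured 255.1 to 511.6 CPM in CA1 PNs, 288.2 to 416.1 CPM in CA3 PNs and 245.6 to 378.8 CPM in DGCs. Of its 12 LFCs, 1 passed the test, CA1 PNs over DGCs in 2N ChP (LFC 0.35 ± 0.103, edgeR adjusted p = 0.00606). It did not pass without the 10 CA1 libraries (LFC 0.19 ± 0.0974, edgeR adjusted p = 0.138). All LFCs of Gabrb1 against DGCs were above 0, at 0.02 to 0.35 for CA1 PNs and 0.02 to 0.15 for CA3 PNs. Within mice, CA1 PNs had the higher Gabrb1 level in 19 of 27 pairs with DGCs, and CA3 PNs in 19 of 26. Gabrb1 starts beside Gabra4, and only Gabra4 of this pair was higher in DGCs in each stratum.

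Per length, the subunits were ordered alike in the 3 populations only at the top. Levels are the authors' TPM, which divides by transcript length, and neighbours in the order overlapped in range unless said. In CA1 PNs the medians over 27 libraries were 91.5 TPM for Gabra5, 41.5 for Gabrb2, 40.2 for Gabra2, 33.4 for Gabrb1, 23.2 for Gabra4, 8.17 for Gabra3 and 2.37 for Gabrd. In CA3 PNs Gabra5 had a median of 103 TPM and Gabra2, Gabrb1, Gabrb2 and Gabra4 of 51.4, 39.6, 35.6 and 24.4, followed by Gabra3 at 1.01 (highest 5.13) and Gabrd at 0.370 (highest 1.88), both below every CA3 library of the other 5. In DGCs Gabra5, Gabra4, Gabra2 and Gabrb2 lay close together at medians of 59.1, 56.2, 53.0 and 52.5 TPM, before Gabrb1 at 40.9, Gabrd at 20.2 and Gabra3 at 0.545.
As a share of the 7 members' summed TPM, Gabra5 took a median of 20.6% in DGCs, where its range (17.1% to 23.3%) lay below that of both pyramidal populations, against 38.3% in CA1 and 39.5% in CA3 PNs. Gabra4 took 19.5% in DGCs, again without overlap (15.8% to 22.9%) with CA1 (9.32%) or CA3 PNs (10.4%). Gabrd took 7.22% in DGCs, 1.10% in CA1 and 0.149% in CA3 PNs.

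**Figure D4:**
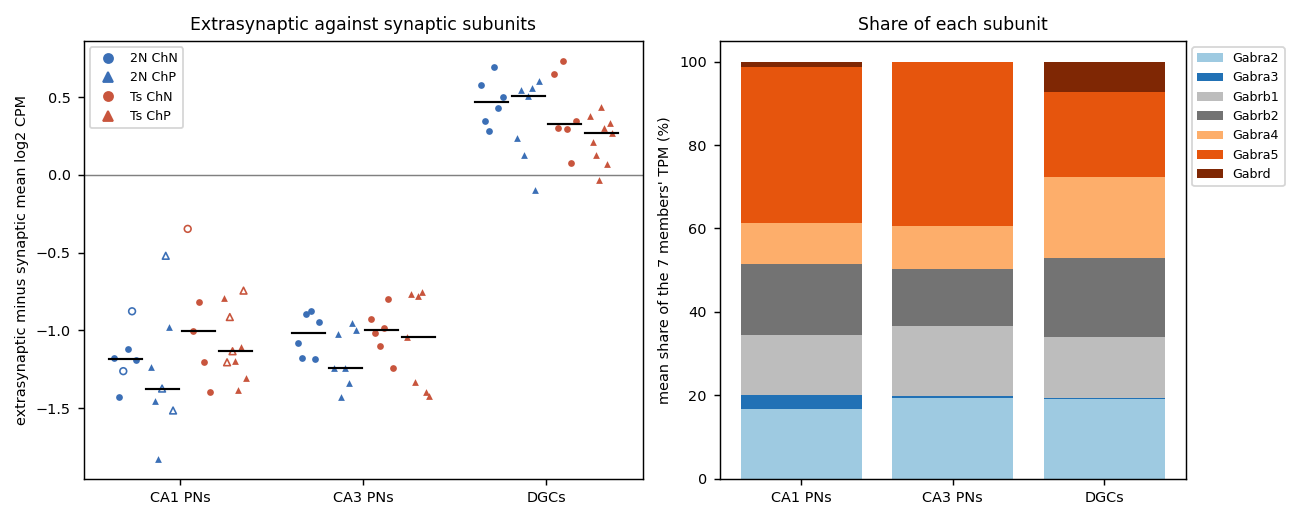
Left, mean log2 CPM of Gabra4, Gabra5 and Gabrd less that of Gabra2, Gabra3, Gabrb1 and Gabrb2 in each library by population, genotype (blue 2N, red Ts) and diet (circles ChN, triangles ChP), with bars for group medians and open symbols for the 10 CA1 libraries with high CA2 markers; right, mean share (%) of each member in the members' summed TPM. The DGC libraries (-0.10 to 0.74) lie above all CA1 (at most -0.35) and CA3 (at most -0.75) libraries.

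The balance of extrasynaptic and synaptic subunits was described by the mean log2 CPM of Gabra4, Gabra5 and Gabrd less that of the 4 synaptic members, with no test. The median was 0.34 in DGCs (range -0.10 to 0.74), -1.19 in CA1 PNs (-1.83 to -0.35) and -1.03 in CA3 PNs (-1.43 to -0.75), so that DGCs lay above both pyramidal populations with no overlap, and in each of 27 and 26 mice. CA1 and CA3 PNs overlapped, with CA1 above CA3 in 10 of 25 mice and below in 15. The extrasynaptic mean was 5.97 in CA1 and 5.24 in CA3 PNs and the synaptic mean 7.07 and 6.30. Both were higher in CA1 PNs. The extrasynaptic-minus-synaptic difference weighs each gene alike on a log scale, whatever its level. By mean share of the 7 members' TPM, Gabra5 was lower in DGCs (20.3%) than in CA1 (37.5%) and CA3 PNs (39.3%). Gabra4 (19.5% against 9.76% and 10.1%) and Gabrd (7.33% against 1.29% and 0.193%) were higher in DGCs. The lower share of Gabra5 offset these higher shares, so DGCs did not have a larger extrasynaptic share of TPM.
By group, medians of the difference in DGCs were 0.47 in 2N ChN, 0.51 in 2N ChP, 0.33 in Ts ChN and 0.27 in Ts ChP, and all 4 ranges overlapped. In CA1 PNs they were -1.18, -1.37, -1.002 and -1.13, and in CA3 PNs -1.01, -1.24, -1.0 and -1.04 in the same order. Within a population, therefore, neither genotype nor diet separated the libraries on this measure.

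Genotype was compared within each population and diet, to ask whether trisomy changed the members. None of the 41 LFCs for Ts against 2N passed the adjusted threshold (edgeR, smallest adjusted p = 0.512), and 2 had an unadjusted p under 0.05. DESeq2 and limma-voom called 0 as well. In CA1 PNs, CA3 PNs and DGCs, 0.00814%, 0.662% and 0.588% of all genes tested passed the adjusted threshold on the ChN diet and 0.0740%, 0.227% and 0.423% on the ChP diet, so that 0 of 7 members is close to this background. The shares with an unadjusted p under 0.05 were 3.77%, 9.20% and 8.50% on the ChN diet and 4.04%, 5.47% and 7.61% on the ChP diet. Gabrd did not pass the filter on low counts in CA3 PNs on the ChN diet and was not tested there.
The 2 members with an unadjusted p under 0.05 both had LFCs below 0 in DGCs on the ChN diet. Gabra5 measured 111.8, 158.1 and 170.8 CPM (lowest, median, highest) in 2N and 113.6, 130.2 and 146.8 CPM in Ts DGCs, an LFC of -0.21 ± 0.0969 (unadjusted p = 0.0363, adjusted p = 0.56 by edgeR). Gabrb1 measured 310.8, 335.0 and 377.6 CPM in 2N and 265.3, 315.4 and 343.5 CPM in Ts DGCs, an LFC of -0.17 ± 0.0747 (unadjusted p = 0.0253, adjusted p = 0.512 by edgeR). The groups overlapped for both genes. On the ChP diet the LFCs of Ts against 2N DGCs were -0.11 ± 0.0903 for Gabra5 and 0.02 ± 0.0732 for Gabrb1.
The remaining genotype LFCs of Gabra2, Gabra4, Gabra5, Gabrb1 and Gabrb2 were between -0.17 and 0.21, with SEs up to 0.161. Gabra3 and Gabrd had wider errors. Gabra3 had an LFC below 0 in 5 of 6 comparisons, the one farthest from 0 being -0.78 ± 0.388 in ChP CA1 PNs (unadjusted p = 0.0566, adjusted p = 1.0 by edgeR), and Gabrd in CA3 PNs on the ChP diet had an LFC of 0.86 ± 0.797, which was 0.22 ± 0.852 without the CA3 library of mouse 15-140.

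**Figure D5:**
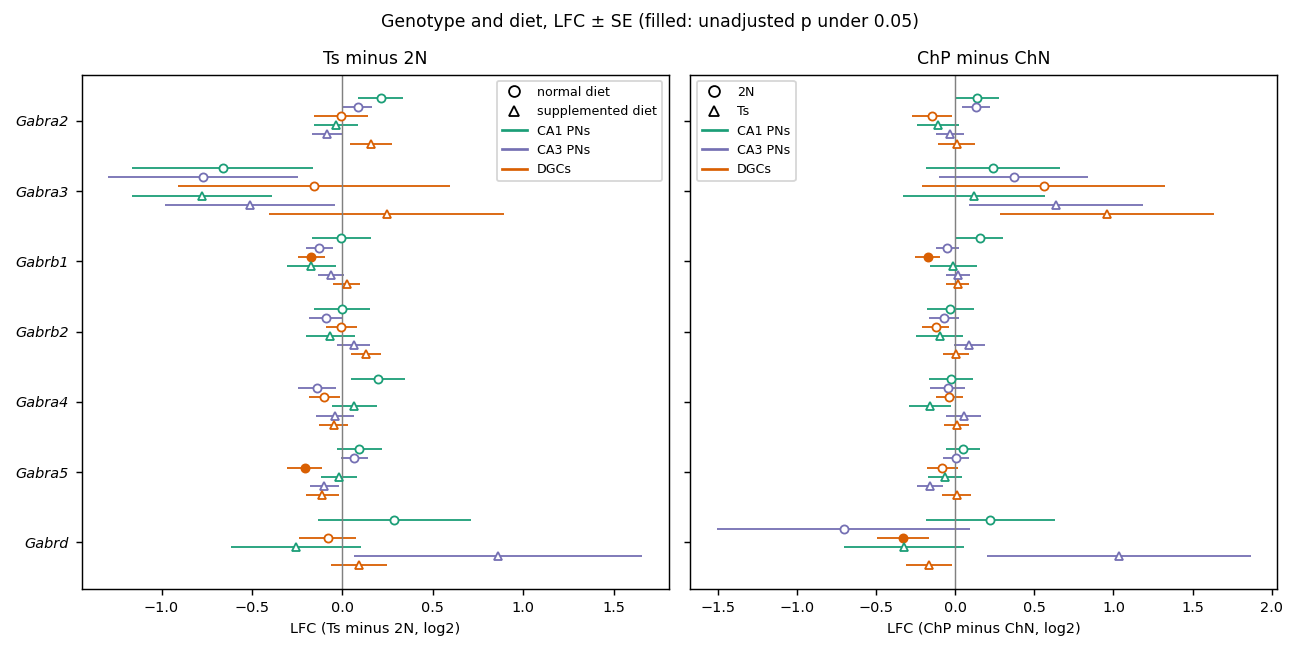
LFC (log2) ± SE of each member for Ts minus 2N on each diet (left) and for ChP minus ChN in each genotype (right), by population, with filled symbols for an unadjusted p under 0.05. Most symbols lie within 0.25 of 0, those of Gabra3 and Gabrd have the longest bars, and no symbol passed the adjusted threshold.

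Maternal diet was compared within each population and genotype. None of the 42 LFCs for ChP against ChN passed the adjusted threshold (edgeR, smallest adjusted p = 0.839), nor did any with DESeq2 or limma-voom, and 2 had an unadjusted p under 0.05, both in 2N DGCs. Of all genes tested, 0.0120% passed the adjusted threshold in 2N CA3 PNs, 0.00605% in 2N DGCs and 0 elsewhere, and the shares with an unadjusted p under 0.05 for CA1 PNs, CA3 PNs and DGCs were 3.35%, 4.90% and 5.82% in 2N and 3.06%, 4.19% and 3.81% in Ts mice. Gabrb1 in 2N DGCs measured 310.8, 335.0 and 377.6 CPM (lowest, median, highest) on ChN and 245.6, 298.7 and 348.2 CPM on ChP, ranges that overlapped (LFC -0.18 ± 0.0795, unadjusted p = 0.0295, adjusted p = 0.839 by edgeR). Gabrd had an LFC of -0.33 ± 0.164 (unadjusted p = 0.0455, adjusted p = 0.853 by edgeR). In Ts DGCs the LFCs were 0.01 ± 0.0743 for Gabrb1 and -0.17 ± 0.147 for Gabrd.
The difference between genotypes in the response to diet was itself tested. None of 21 LFCs for genotype by diet passed either threshold, with a smallest unadjusted p of 0.085 for Gabrb1 in DGCs (LFC 0.19 ± 0.109, edgeR) and an adjusted p of 0.997 or more for every member. By this test an unadjusted p under 0.05 was found for 3.97% of all genes in DGCs, 3.38% for CA1 and 4.87% for CA3 PNs, and 0 passed the adjusted threshold.
Whether the genotype effect differed between populations was tested in ChN mice, by a fit in which libraries of the same mouse were not paired. None of 21 LFCs passed the adjusted threshold (smallest adjusted p = 0.885). The Gabra4 LFC for Ts against 2N was 0.20 ± 0.150 in CA1 and -0.14 ± 0.106 in CA3 PNs, a difference of 0.36 ± 0.168 (edgeR, unadjusted p = 0.0349, adjusted p = 1.0). The Gabra5 LFC was 0.09 ± 0.124 in CA1 PNs and -0.21 ± 0.0969 in DGCs, a difference of 0.31 ± 0.147 (edgeR, unadjusted p = 0.0383, adjusted p = 0.885). An unadjusted p under 0.05 was found for 4.23% of all genes between CA1 and CA3 PNs, 5.51% for DGCs against CA1 PNs and 5.17% for DGCs against CA3 PNs, and 0.00560% passed the adjusted threshold in the last of these and 0 in the others.

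Whether a member was high or low in the same mice across populations was asked over the mice with both libraries, after taking off the mean of each population, genotype and diet group. Of 21 relations (7 members by 3 pairs), 4 had a Benjamini-Hochberg adjusted p under 0.05 by Pearson's r, 3 of them for Gabra2. The share of all genes with such a relation is not given here, so the count cannot be set against a background. The 3 relations of Gabra2 use the same libraries in turn and are not separate results. For Gabra2 in CA3 PNs and DGCs, r was 0.576 over 26 mice (two-sided permutation p = 0.00198, adjusted p = 0.0374), Spearman's rho was 0.618 (permutation p = 0.00092, adjusted p = 0.0193), and r was 0.605 without the 2 mice farthest from the CA3 median. For Gabra2 in CA1 and CA3 PNs, r was 0.557 over 25 mice (permutation p = 0.00356, adjusted p = 0.0374) and rho 0.462 (permutation p = 0.0215, adjusted p = 0.113), with r of 0.386 without the 2 farthest mice.
Gabra2 in CA1 PNs and DGCs gave r of 0.510 over 27 mice (permutation p = 0.00653, adjusted p = 0.0457) and rho of 0.496 (permutation p = 0.00957, adjusted p = 0.067), and r of 0.353 without the 2 farthest. Gabrd in CA1 PNs and DGCs gave r of 0.492 (permutation p = 0.00886, adjusted p = 0.0465) and rho of 0.502 (permutation p = 0.00779, adjusted p = 0.067), and r of 0.632 without the 2 farthest. Of the 4 relations, that of Gabra2 in CA3 PNs and DGCs also passed by rho. None of the 21 passed by r when only the population mean was taken off, where the same relation of Gabra2 had r of 0.468 (permutation p = 0.0164, adjusted p = 0.149). Without the 10 CA1 libraries the CA1 relations were left with 17 mice and none passed (Gabra2, r of 0.380 and 0.179; Gabrd, r of 0.465). Libraries of a mouse share its background, which was not tested apart.

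The genes most like each member were picked by Pearson r over all 81 libraries, a choice that favours genes with the same population pattern. Among genes with a mean log2 CPM of at least 4, those with the highest Pearson r included Pkig (0.953), Rfx3 (0.949) and Dgkh (0.948) for Gabrd and Dgkh (0.916) and Akap7 (0.909) for Gabra4, all highest in DGCs. For Gabra3 they were Map4 (0.926), Mpped1 (0.918) and Slc24a3 (0.915), all highest in CA1 PNs, and for Gabra5 Ap2b1 (0.933), Slc8a1 (0.925) and Prepl (0.918), all lowest in DGCs. For Gabrb2 they were Cdk17 (0.887), Ndst4 (0.886) and Pik3r1 (0.886), all lowest in CA3 PNs. Gabrb1 and Gabra2, with no such pattern, had lower values, with Stxbp5l (0.723), Sms (0.666) and mt-Co1 (0.661) for Gabrb1 and Lrif1 (0.550), Mblac2 (0.509) and Vps13b (0.5) for Gabra2.
These values describe libraries that share population and depth. Within one population the values of these genes for Gabra4, for Gabra5 and for Gabrd were at most 0.470, 0.407 and 0.568, and Rfx3 and Gabrd had r of -0.308 in CA1 PNs. Cdk17 and Gabrb2 had r of 0.893, and Map4 and Gabra3 of 0.671, within CA1 PNs, where libraries differ in CA2 markers, and at most 0.206 in the other populations.

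Other genes of GABA signalling were read from 4 lists. Counts are ranges over the 4 strata, beside the shares of all genes called given above, with no test of a list. Of the other GABA-A subunit genes, Gabrg3, which encodes a gamma subunit, was higher in CA1 PNs than in CA3 PNs (LFC 1.91 to 2.34) and DGCs (LFC 1.52 to 2.00) in 4 of 4 strata. Gabrg1, another gamma subunit gene, was called in no stratum.
Of 15 genes of receptor anchoring and trafficking, 11 were called between CA3 PNs and DGCs in each stratum, beside 40.4% to 44.5% of all genes, 7 to 9 between CA1 PNs and DGCs, beside 31.8% to 39.3%, and 6 to 9 between CA1 and CA3 PNs, beside 22.9% to 25.3%. The list's median LFC was 0.29 to 0.42, 0.19 to 0.32 and -0.06 to 0.06 for these pairs, where that of all genes was between -0.06 and 0.01. Iqsec3, a gephyrin-binding exchange factor of inhibitory synapses, was higher in CA3 PNs than in DGCs (LFC 1.86 to 1.98) and than in CA1 PNs (CA1 over CA3, LFC -1.42 to -1.27). Shisa7, an auxiliary subunit of GABA-A receptors, was higher in CA1 than in CA3 PNs (LFC 0.99 to 1.17), and Nsf, a membrane fusion ATPase, was lower (LFC -0.83 to -0.70).
Of 5 chloride and bicarbonate genes, 3 to 4 were called between CA1 and CA3 PNs (22.9% to 25.3% of all genes), 3 to 5 between CA1 PNs and DGCs (31.8% to 39.3%) and 1 between CA3 PNs and DGCs (40.4% to 44.5%). The median LFC was 0.34 to 0.64, -0.06 to 0.58 and -0.17 to -0.06. Slc12a5, the KCC2 cotransporter that extrudes chloride, was higher in CA1 PNs than in CA3 PNs (LFC 0.48 to 0.64) and DGCs (LFC 0.32 to 0.58), and Slc12a2, the NKCC1 cotransporter that takes chloride up, was lower in both (LFC -0.73 to -0.45 and -0.93 to -0.51). Car7, a carbonic anhydrase of mature neurons, was higher in CA1 PNs by 1.65 or more in each.
Of 7 genes of GABA synthesis, transport and breakdown, 2 to 3 were called between CA1 and CA3 PNs (22.9% to 25.3% of all genes), 3 to 5 between CA1 PNs and DGCs (31.8% to 39.3%) and 3 to 6 between CA3 PNs and DGCs (40.4% to 44.5%). The median LFC was 0.34 to 0.53, 0.05 to 1.11 and -0.37 to 0.78. Gad1, which makes GABA, was lower in CA3 PNs than in DGCs (LFC -1.42 to -0.94). Gad1, Gad2 and Slc32a1 are also interneuron markers, and the 8 interneuron markers summed to 175.2 to 334.7 CPM in DGCs, 149.5 to 457.7 CPM in CA1 PNs and 130.8 to 418.6 CPM in CA3 PNs. These like sums hide opposite directions. Gad1 had its highest median in DGCs, at 180.6 CPM against 107.6 in CA1 and 75.78 in CA3 PNs. Every other marker had its lowest median in DGCs, as for Sst at 0 CPM against 11.98 and 35.63. The part of interneuron RNA in these differences was not tested. By genotype, by diet and in the tests of differences between effects, no gene of these 4 lists passed the adjusted threshold, and at an unadjusted p under 0.05 the counts per comparison were 0 to 5 of 7 for the synthesis and transport genes, and 0 to 2 for each other list. The count of 5 was for Ts against 2N DGCs on the ChP diet, where 7.61% of all genes had such a p (list median LFC 0.38, all genes 0.02). There the interneuron markers summed to 233.7 to 334.7 CPM in Ts and 175.2 to 260.2 CPM in 2N mice. This sum includes Gad1, Gad2 and Slc32a1 of the same list, so it is not separate from the count of 5. The part of interneuron RNA in that count was not tested. A count of 4 was found for ChP against ChN in Ts DGCs (list median LFC 0.31, all genes -0.02). There 3.81% of all genes had such a p. Ts against 2N CA3 PNs on the ChN diet also gave 4, with a list median below 0 (LFC -0.37, all genes -0.00034). In that comparison 9.20% of all genes had such a p. Interneuron markers there summed to 134.5 to 180.1 CPM in Ts and 149.6 to 418.6 CPM in 2N mice. Their part was not tested.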

How the data were processed

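Laser-captured RNA was sequenced from 81 libraries of 28 mice. The authors trimmed reads (Trimmomatic 0.39), aligned them with STAR and counted with RSEM on GRCm39; the labels also list mm10. The deposited expected counts per gene, of which 0.784% were not whole, were rounded, and each matrix equalled the library files. The authors' TPM, deposited beside the counts, served for levels between genes, and their deposited effective lengths (another column) for the per-kilobase alternative. Genes over 0.1 CPM in 10 libraries of a fit (1 fewer than all where a fit had 10 or fewer) were scaled by TMM and tested with edgeR 4.0.16 (quasi-likelihood, Benjamini-Hochberg over all genes tested, called under 0.05), after tests on simulated data. CPM and log2 CPM (prior count 2) were scaled by TMM over all 81 libraries, apart from the fits. Same-mouse relations used 100000 permutations. Mice were paired by their number in the labels. The study's read-quality covariates were not used here.

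The 7 members were named in every comparison, with up to 4 called genes per list and 3 like genes per member; results for some of these genes are not reported here. Members and lists were chosen with earlier results of these data known. Alternatives were DESeq2 1.42.0, limma-voom (limma 3.58.1), library totals, filterByExpr (minimum count 10), no filter, both diets in 1 fit, the mouse block, the own label of 15-145-CA3, leaving out 2 CA1 libraries or each replicate, and, added after seeing the data, leaving out 10 CA1 libraries. P-values by genotype or diet within a population measure the spread between mice. The main fits between populations, and of genotype effects between populations, had no mouse term. In them, libraries of the same mouse counted as independent.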

Additional observations from a re-analysis of the deposited data

Results flagged for a closer look

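In 96 sets of values (7 members and the extrasynaptic-minus-synaptic difference in 12 groups), 3 held a library whose distance from its nearest neighbour was large for the range of its group by Dixon's criterion, where chance flags about 1 in 20. Gabra4 in 2N ChP CA3 PNs was 125.5 CPM in mouse 15-269, against 76.59 to 95.95 CPM in the other 6 libraries. Gabra5 in 2N ChN CA3 PNs was 265.6 CPM in mouse 15-147, against 223.6 to 234.1 CPM in the other 5. Gabrd in Ts ChP CA3 PNs was 4.732 CPM in mouse 15-140, against 0 to 2.010 CPM in the other 6, a level at which 1 library holds 5 reads. The same library held 108.8 CPM of the dentate markers Prox1, Dsp and C1ql2, against 3.150 to 10.72 CPM in the other 6, and their part in its Gabrd level was not tested. Leaving out each of these libraries changed no call by genotype or diet.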

How the results depend on the processing

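No called LFC of a member changed direction under any alternative. Between populations, 566 of 582 LFCs under other settings and 585 of 588 with 1 mouse left out stayed on the same side of the threshold; for genotype, diet and their interactions 783 of 783 and 2743 of 2743 did. With 1 mouse left out, the members called ranged from 3 to 5 per population comparison, and by genotype or diet from 0 to 0. With library totals, 5 members in place of 3 were called for CA1 against CA3 in 2N ChP; the cause was not tested. With the mouse as a replicate block, 3 to 5 members were called per population comparison, and 1 more than without it for CA1 against CA3 in Ts ChN; no other count changed. Same-mouse relations past the threshold went from 4 to 0 with values less the population mean only, to 2 without libraries 17-21 and 17-154 and to 1 without the 10 CA1 libraries. Without Gabrb1 and Gabrb2 the extrasynaptic-minus-synaptic medians were 2.00 for DGCs, 0.34 for CA3 and -0.34 for CA1 PNs, since 2 high synaptic members leave the mean. Gabra5 in CA1 PNs was 119 when computed from expected counts per kilobase of effective length, in place of 91.5 TPM. Depth limits Gabrd in CA3 PNs (0 to 5 reads per library) and Gabra3 in DGCs (0 to 4 reads).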

Other observations

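Gabra3, the subunit found mainly in CA1 PNs, had LFCs for Ts against 2N of like size on both diets once the 10 CA1 libraries with high CA2 markers were left out, an alternative chosen after seeing the data. On the ChN diet it then measured 26.74 to 54.67 CPM in 4 2N libraries and 15.35 to 27.99 CPM in 4 Ts libraries (LFC -0.84 ± 0.251, edgeR unadjusted p = 0.00184, adjusted p = 0.277). On the ChP diet it measured 39.33 to 47.95 CPM in 4 2N libraries and 15.27 to 39.31 CPM in 5 Ts libraries (LFC -0.86 ± 0.230, edgeR unadjusted p = 0.000404, adjusted p = 0.146). The groups overlapped on the ChN diet, and on the ChP diet the highest Ts library (39.31 CPM) lay next to the lowest 2N library (39.33 CPM). The shares of all genes with groups this far apart, or with an unadjusted p under 0.05, are not given here for these fits. Neither LFC passed the adjusted threshold, and with all libraries the LFCs were -0.66 ± 0.502 and -0.78 ± 0.388. In CA3 PNs the LFCs were -0.77 ± 0.523 and -0.51 ± 0.471. The CA1 markers Wfs1, Fibcd1 and Spink8 were also lower in Ts mice in these CA1 libraries. They summed to 759.0 to 1076 CPM in Ts against 1208 to 1407 CPM in 2N on the ChN diet. On the ChP diet they summed to 824.4 to 992.3 CPM in Ts against 1019 to 1265 CPM in 2N. The part of the captured cells in the Gabra3 LFCs was not tested.

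Gabra2 in the same 17 CA1 libraries had an LFC of 0.31 ± 0.119 for Ts against 2N on the ChN diet (unadjusted p = 0.0117, adjusted p = 0.54 by edgeR) and of -0.52 ± 0.189 for genotype by diet (unadjusted p = 0.00964, adjusted p = 0.967 by edgeR). Its 4 2N ChN libraries measured 165.1 to 228.3 CPM and its 4 Ts ChN libraries 213.7 to 288.2 CPM. These groups overlapped.

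Across the 27 CA1 libraries, Gabra3 and Gabrb2 had a Pearson r of 0.717 and Gabrb1 and Gabrb2 of -0.537, values that describe libraries which also differ in CA2 markers.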
